A study of Mus musculus with 2 samples.

Results

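CC chemokine ligands are small secreted proteins with a pair of adjacent cysteines near the amino terminus. The genes examined here were Ccl2, Ccl3, Ccl4, Ccl5, Ccl6, Ccl7, Ccl9, Ccl12 and Ccl22, chosen by their symbols. All 9 symbols had an entry among the 26037 genes measured. RNA came from RANKL-treated bone marrow-derived cells of C57BL/6 mice and was compared between 1 MMP9 knockout library and 1 control library. RANKL is the cytokine that turns marrow macrophages into bone-resorbing osteoclasts, and both groups received it for 3 days. Donor mice were 6 to 8 weeks old. Their marrow was first grown with 5 ng/ml M-CSF, and cells that had not attached then received 30 ng/ml of it over 3 days to give macrophages. The submitters call both samples primary osteoclast cells. The column headings also carry "sh" for the knockout and "NCsh" for the control, letters that the labels do not explain, and no source used here says whether the gene was deleted or silenced. What is called the knockout here follows the labels.

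With n = 1 per genotype, no test between genotypes was possible, and each difference below describes these 2 libraries. The knockout library held 17741432 reads over genes and the control library 20678441. Levels are normalised read counts, which are read counts multiplied by 1 factor per library. A range in parentheses is a 95% interval. It covers counting error only and treats each read as an independent molecule, which cannot be assumed without molecular identifiers. A gene was compared when its mean level over both libraries was at least 1. It was called higher or lower when the log2 ratio of knockout to control, computed after adding 1 to each level, passed 2-fold. Printed folds are computed without that added 1.

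Chemokine ligands act through G protein-coupled receptors on leukocytes and direct their migration. Macrophages make many CC ligands when NF-kB and interferon signalling are active, and osteoclast precursors and osteoclasts carry the receptor Ccr1. Several ligands overlap in the receptors they use: Ccl3, Ccl5, Ccl6, Ccl7 and Ccl9 bind Ccr1, Ccl2, Ccl7 and Ccl12 bind Ccr2, and Ccl22 binds Ccr4. In mouse osteoclast cultures Ccl9, also named MIP-1 gamma, is known as a ligand made in response to RANKL.

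Mmp9, the targeted gene, had a level of 3.87 in the knockout library against 139 in the control library, from 163 and 5609 reads, so it was 36.0-fold lower (30.8 to 42.3). Markers of cell state differed between the same libraries. The summed level of 9 osteoclast markers was 391 in the knockout and 6685 in the control, with 9 of 9 lower and none at 0 in either library. Calcr, Oscar and Itgb3 had a level under 1 in the knockout and passed the filter only through the control. Their calls were thus partly set by the filter. The summed level of 8 macrophage markers was 1362 in the knockout and 1008 in the control, with 5 of 7 compared markers higher and 1 lower. This list was mixed. Cd68, the lower one, was 60.9 in the knockout and 150 in the control, and Csf1r, within 2-fold, was 564 and 751. Lyz2 was 423 in the knockout and 50.8 in the control, and Cd14 was 166 and 15.5. Over all compared genes 4% were called higher and 9.58% lower, by the rule given above. Mertk had 1 read in the knockout and 0 in the control, so it was nearly absent from both. Fcgr1 had 468 reads in the knockout and 0 in the control. It passed the filter only through the knockout, so its higher call was partly set by the filter. In bulk RNA, fewer cells of a type and less RNA per cell cannot be told apart, and the part of these marker differences in the chemokine results was not tested.

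Of the 9 ligands, 6 were called higher in the knockout library (Ccl2, Ccl3, Ccl4, Ccl5, Ccl7 and Ccl22), 1 was called lower (Ccl9) and 2 lay below the level for comparison (Ccl6 and Ccl12). Over all 11126 compared genes 4% were called higher and 9.58% lower. Ccl5, Ccl7 and Ccl22 had a level under 1 in the control and passed the filter only through the knockout, so their call was partly set by the filter. The 4 ligands present in the control, at a level of at least 1, were Ccl2, Ccl3, Ccl4 and Ccl9, and of these 3 were higher and 1 lower. Their median log2 ratio was 2.53, and that of the 7 compared ligands 2.34. The median over the 7 was 3.27 with 0.1 added to each level in place of 1, and 1.499 with 5 added. Among the 11054 genes with a control level of at least 1, 2.74% were higher and 9.89% lower, with a median log2 ratio of -0.18.

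The balance of higher and lower calls over all genes depended on how the libraries were scaled. As deposited, 445 genes were higher and 1066 lower, so 29.5% of the called genes were higher. This share was 41.5% with the median log2 ratio set to 0, 42.2% with a trimmed mean of log ratios, 49.6% with equal sums and 44.7% after centring in bins of GC content. The median log2 ratio of compared genes was -0.16 as deposited. The scalings added 0.18, 0.19 and 0.29 to the log2 knockout level.

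**Figure D1:**
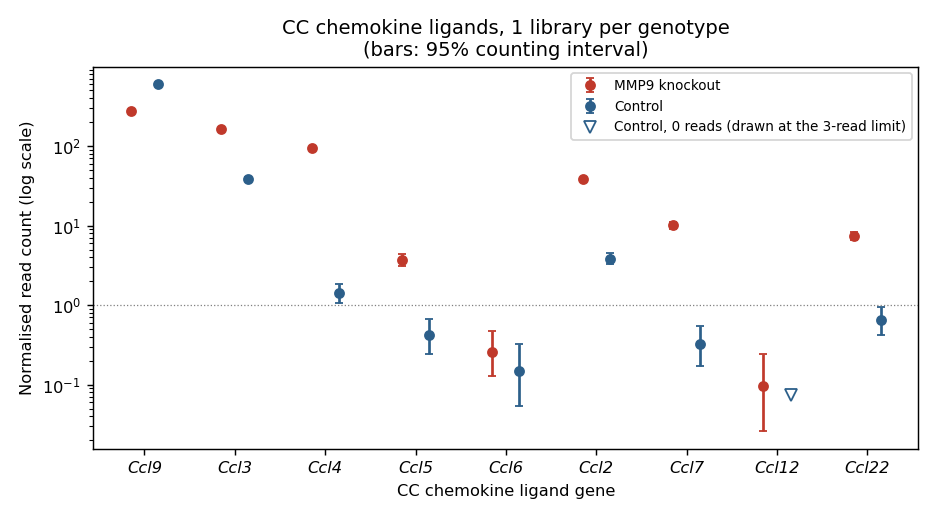
Normalised read counts (log axis) of the 9 CC ligands in the MMP9 knockout library (red, left of each pair) and the control library (blue, right), with 95% counting intervals. The dotted line marks a level of 1. Ccl9 is higher in the control, whereas Ccl3, Ccl4, Ccl5, Ccl2, Ccl7 and Ccl22 are higher in the knockout. The intervals of Ccl6 overlap, and Ccl12 had 0 reads in the control.

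Ccl9 was the most abundant CC ligand of the control library and was the ligand with the lower level in the knockout. Its level was 276 in the knockout and 594 in the control, from 11620 and 23889 reads. It was therefore 2.15-fold lower (2.10 to 2.20). Unlike the other compared ligands, its call depended on scaling: the log2 ratio of -1.10 became -0.92 with the median set to 0, -0.91 with a trimmed mean and -0.82 with equal sums, each lower but short of 2-fold. After centring by GC content it was -1.17. Ccl9 (ENSMUSG00000019122) lies on the minus strand of chromosome 11, from 83572919 to 83578636 in GRCm38, and has 4 exons.

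Ccl3 and Ccl4, also named MIP-1 alpha and MIP-1 beta, are inflammatory ligands of macrophages, and Ccl3 is known to promote osteoclast formation. Ccl3 had a level of 162 in the knockout and 38.3 in the control, from 6802 and 1540 reads, and was 4.22-fold higher (3.99 to 4.47). Ccl4 had a level of 93.4 in the knockout and 1.42 in the control, from 3933 and 57 reads, and was 66.0-fold higher (50.8 to 87.3). Ccl3 was thus already well expressed in the control library, whereas Ccl4 was close to the lower limit used here. Their log2 ratios of 2.05 for Ccl3 and 5.29 for Ccl4 held ranks 154 and 6 from the top among 11126 compared genes.

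Ccl5, also named RANTES, attracts T cells and monocytes and is known as an interferon-responsive and NF-kB-responsive gene. It had a level of 3.71 in the knockout and 0.422 in the control, from 156 and 17 reads, and was 8.77-fold higher (5.31 to 15.4). Its log2 ratio of 1.73 shrank to 0.68, short of 2-fold, with an added value of 5 in place of 1, which acts through its low levels by construction. Ccl6, a mouse ligand of Ccr1 without a direct human counterpart, had only 11 reads in the knockout and 6 in the control. Its levels were 0.261 in the knockout and 0.149 in the control, and the interval of the ratio, 0.594 to 5.77, held 1.

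The monocyte-attracting ligands that act on Ccr2 differed in level. Ccl2, also named MCP-1, had a level of 37.9 in the knockout and 3.85 in the control, from 1596 and 155 reads, and was 9.84-fold higher (8.34 to 11.7). Ccl7, also named MCP-3, had a level of 10.0 in the knockout and 0.323 in the control, from 423 and 13 reads, and was 31.1-fold higher (18.0 to 58.9). Ccl12, another Ccr2 ligand of the mouse, was barely detected, with 4 reads in the knockout and 0 in the control. Its level in the knockout was 0.0950, and the interval of the ratio, from 0.631 upwards, held 1.

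Ccl22, a Ccr4 ligand of dendritic cells and alternatively activated macrophages, had a level of 7.34 in the knockout and 0.646 in the control. These levels came from 309 and 26 reads, and Ccl22 was 11.4-fold higher (7.61 to 17.7). The summed level of 8 dendritic cell markers was 2.42 in the knockout and 16.2 in the control. Both compared dendritic markers, Itgax and Zbtb46, were lower, and Flt3, Cd209a and Batf3 had no read in either library.

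**Figure D2:**
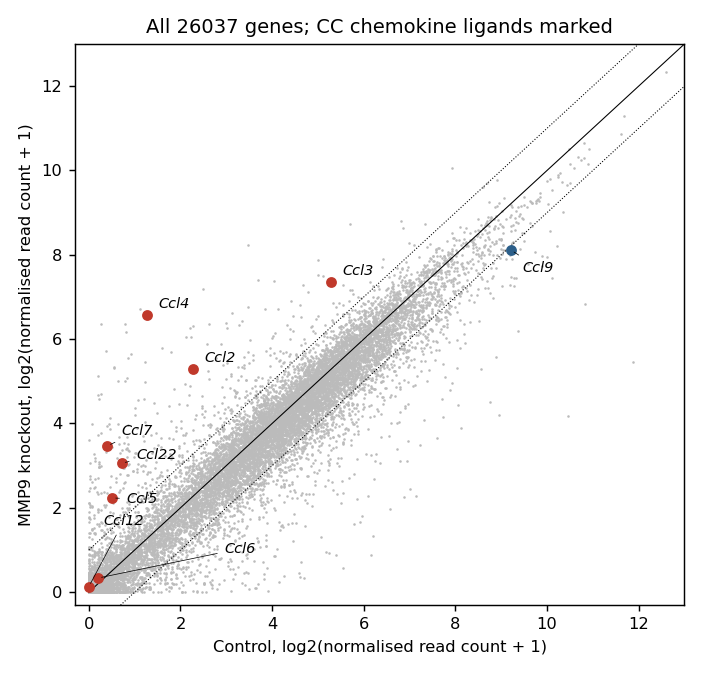
Level of each of 26037 genes in the MMP9 knockout library (vertical) against the control library (horizontal), as log2 of the normalised read count plus 1. The solid line marks equal levels and dotted lines 2-fold. Marked ligands above the upper dotted line are Ccl2, Ccl3, Ccl4, Ccl5, Ccl7 and Ccl22. Ccl9 lies just below the lower one, and Ccl6 and Ccl12 sit near the origin.

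Ratios between ligands within a library do not depend on scaling. Ccl3 had 0.585 reads per read of Ccl9 in the knockout and 0.0645 in the control, a 9.08-fold difference of the ratio (8.55 to 9.64). Ccl2 had 0.137 reads per read of Ccl9 in the knockout and 0.00649 in the control, a 21.2-fold difference (17.9 to 25.2). Ccl4 had 0.338 reads per read of Ccl9 in the knockout and 0.00239 in the control, a 142-fold difference (109 to 188). Each of these ligands was thus higher relative to Ccl9 in the knockout library, whatever the scaling. Neighbouring ligands also changed their proportions: Ccl4 per Ccl3 was 0.578 reads in the knockout and 0.0370 in the control, 15.6-fold apart (12.0 to 20.8). Ccl7 per Ccl2 was 0.265 reads in the knockout and 0.0839 in the control, 3.16-fold apart (1.77 to 6.13).

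The direction of the summed level of the 9 ligands depended on the scale. As normalised read counts it was 590 in the knockout and 639 in the control, a ratio of 0.924 (0.908 to 0.941). As a share of all reads it was 0.140% in the knockout and 0.124% in the control, and divided by transcript length it was 514 per kb in the knockout and 256 per kb in the control. Without Ccl9 the sum was 314 in the knockout and 45.1 in the control, 6.97-fold higher (6.64 to 7.33). Without Ccl9 and Ccl3 it was 153 in the knockout and 6.81 in the control, 22.4-fold higher (19.9 to 25.4). Ccl9 supplied 46.8% of the summed reads, on the normalised scale, in the knockout and 92.9% in the control.

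Levels of different genes can be set side by side only per length, here the length of the longest protein-coding transcript in GENCODE M21. On this scale the order in the knockout was Ccl3 (211 per kb), Ccl4 (142), Ccl9 (91.8), Ccl2 (46.6), Ccl7 (12.5), Ccl5 (6.97) and Ccl22 (3.31), with non-overlapping counting intervals between neighbours. Ccl6 and Ccl12 followed at 0.181 and 0.177 per kb, with overlapping intervals. In the control the order was Ccl9 (197 per kb), Ccl3 (49.95), Ccl2 (4.74), Ccl4 (2.15) and Ccl5 (0.794), and from Ccl5 through Ccl7, Ccl22, Ccl6 and Ccl12 each interval overlapped that of the next. Ccl9 thus led in the control and Ccl3 in the knockout. The annotated Ccl9 transcript has 3006 bases, most of them 3′ UTR, and the Ccl3 transcript 766, so the order of these ligands rests on the annotated lengths. Among all genes with a length, Ccl3 held rank 105 per kb in the knockout and 747 in the control, Ccl4 rank 169 in the knockout and 8410 in the control, and Ccl9 rank 279 in the knockout and 177 in the control.

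**Figure D3:**
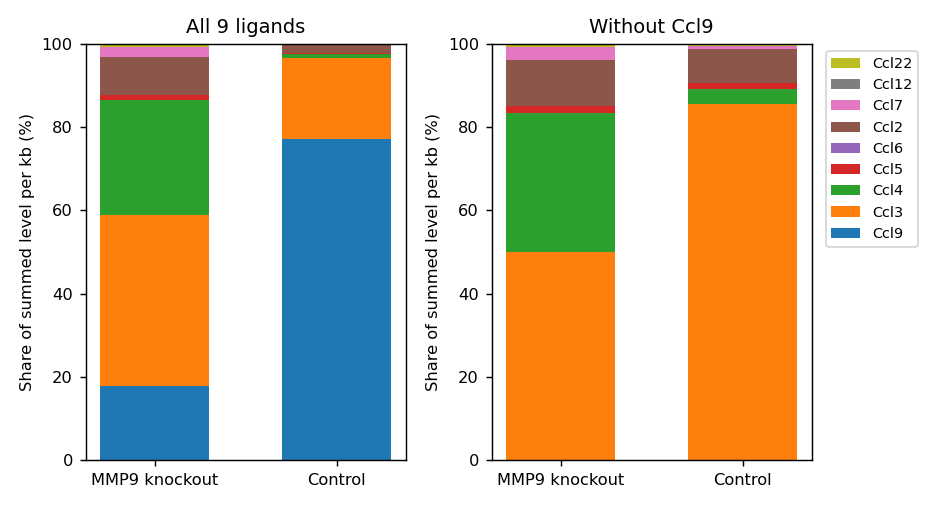
Share of each ligand in the summed level per kb, in percent, for all 9 ligands (left panel) and without Ccl9 (right panel), with the MMP9 knockout bar left of the control bar. Ccl9 made up 17.9% in the knockout and 77.2% in the control. Without Ccl9, Ccl4 made up 33.5% in the knockout and 3.67% in the control, and Ccl3 made up 49.9% in the knockout and 85.5% in the control.

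The ligand genes lie in clusters, and neighbours on the chromosome did not share 1 direction or size. Ccl2, Ccl7 and Ccl12 lie on the plus strand of chromosome 11 within 67.8 kb, from 82035571 to 82103400 in GRCm38. Ccl11, an eosinophil-attracting ligand that lies between Ccl7 and Ccl12, had no read in either library, and neither did Ccl8 and Ccl1 beyond Ccl12. The second cluster, with Ccl5, Ccl9, Ccl6, Ccl3 and Ccl4, spans 139 kb from 83525778 to 83664683. Here Ccl9 and Ccl6, beside each other on the minus strand, were 1 of the best and 1 of the least expressed ligands. Ccl3 and Ccl4 lie 13.2 kb apart on opposite strands and differed 15.6-fold in their change, as given above.

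Of 20 other protein-coding genes within the clusters or among the next 3 on each side of these clusters and of Ccl22, 19 were in the table and 11 had no read in either library. Only 4 reached the level for comparison (Taf15, Rspry1, Arl2bp and Ciapin1), and all 4 were within 2-fold as deposited. Of all 11126 compared genes 13.6% were called either way, so being within 2-fold was common. Taf15, an RNA-binding protein gene next to Heatr9 and Ccl5, was closest to the threshold at 36.7 in the knockout and 18.1 in the control. Its log2 ratio of 0.98 would pass 2-fold under each scaling. Wfdc17, listed as Gm11428 and lying beyond Ccl4, had 62 reads in the knockout and 0 in the control. Against an assumed 3 control reads it was 19.8-fold higher, and the interval of its ratio ran from 15.6 upwards. Ccl17, a Ccr4 ligand like Ccl22 that lies 64.9 kb from it on chromosome 8, had no read in either library.

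**Figure D4:**
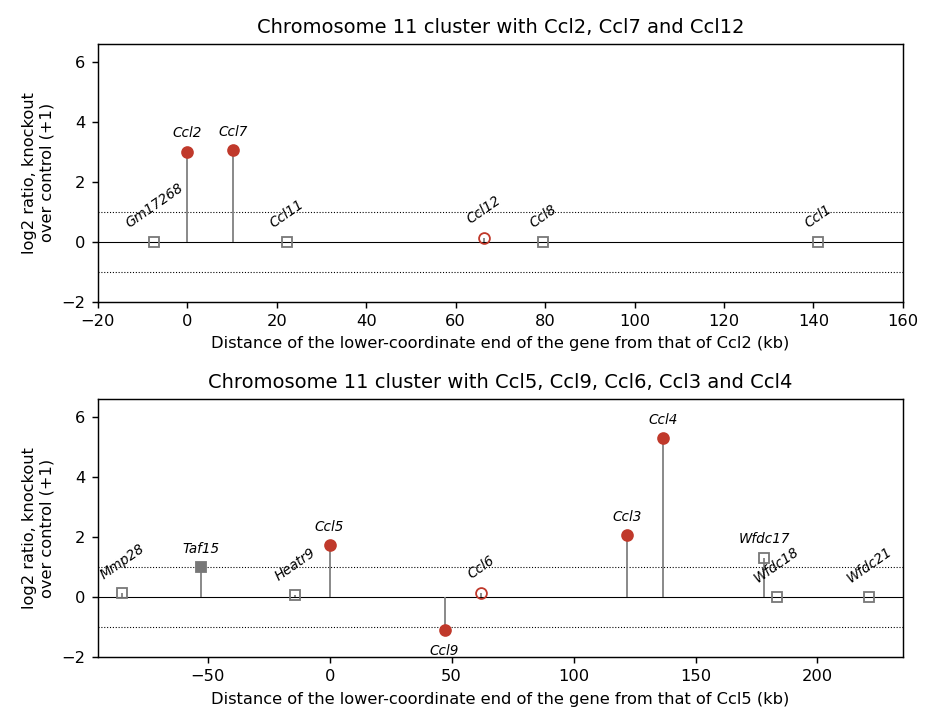
Log2 ratio of MMP9 knockout over control, after adding 1 to each level, against distance in kb along both chromosome 11 clusters. Circles are the ligands examined and squares other protein-coding genes. Filled symbols had a mean level of at least 1, and dotted lines mark 2-fold. Ccl4 stands highest at 5.29 and Ccl9 is negative at -1.10. Ccl6 and Ccl12, below the level for comparison, are near 0, where the added 1 outweighs their low levels.

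Upstream sequence was available from RefSeq for 5 of the 9 ligands (GRCm38.p6), and Ccl2, Ccl4, Ccl5 and Ccl7 were not matched. The sequences of Ccl3, Ccl22 and Ccl9 are shown because these are the matched ligands with a compared level, 2 higher and 1 lower in the knockout. Each begins 250 bases before the RefSeq start, and that of Ccl22 ends before the gene start in GENCODE M21. All 250 bases of each window were searched, and capitals mark matches to any of 5 motifs on either strand: GGGA and CC with 4 bases between (NF-kB-like), TGANTCA (AP-1-like), GAAA and GAAA with 2 bases between (a core of the interferon response element), GAGGAA (PU.1-like) and TATAAA. Ccl3 spans chr11:83649379-83649628 (minus strand), Ccl22 spans chr8:94745434-94745589 (plus strand) and Ccl9 spans chr11:83578637-83578886 (minus strand).
Ccl3: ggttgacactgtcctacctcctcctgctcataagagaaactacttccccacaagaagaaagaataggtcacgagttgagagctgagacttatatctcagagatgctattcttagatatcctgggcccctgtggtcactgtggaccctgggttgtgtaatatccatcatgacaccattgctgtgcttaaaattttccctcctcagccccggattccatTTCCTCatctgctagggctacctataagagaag
Ccl22: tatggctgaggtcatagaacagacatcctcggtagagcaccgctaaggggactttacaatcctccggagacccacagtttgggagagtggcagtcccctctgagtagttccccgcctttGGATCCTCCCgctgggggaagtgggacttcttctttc
Ccl9: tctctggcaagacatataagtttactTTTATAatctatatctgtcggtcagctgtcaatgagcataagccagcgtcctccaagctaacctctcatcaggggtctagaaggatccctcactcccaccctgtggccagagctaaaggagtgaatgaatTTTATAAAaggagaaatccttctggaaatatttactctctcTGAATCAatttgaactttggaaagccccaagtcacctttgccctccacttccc
In Ccl22 the NF-kB-like motif matched from 131 to 122 bases before the start, on the opposite strand, as GGATCCTCCC. In Ccl9 the AP-1-like motif matched from 53 to 47 bases before the start as TGAATCA, and TATAAA matched on the opposite strand at 224 and, overlapping itself on both strands, at 94 and 92. In Ccl3 the PU.1-like motif matched on the opposite strand from 33 to 28 bases before the start. Of the 5 ligands, 1 held the NF-kB-like motif, 1 the AP-1-like motif, 2 the PU.1-like motif, 2 TATAAA and 0 the interferon motif. Of 32851 RefSeq windows of 250 bases, which include several starts for some genes, 17.6% held the NF-kB-like motif, 6.75% the AP-1-like motif, 23.3% the PU.1-like motif, 12.4% TATAAA and 2.98% the interferon motif. These matches describe letters in short windows and not binding sites.

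In the coding sequence the closest pairs were Ccl3 and Ccl4 (66.7% identity), Ccl6 and Ccl9 (64.8%) and Ccl7 and Ccl12 (63.2%). The longest exact stretch shared by any pair of the 9 transcripts was 25 bases, between Ccl6 and Ccl9. The ligand transcripts also held AU-rich pentamers, ATTTA in DNA letters, which mark many unstable cytokine mRNAs. Of the 9 ligands, 8 held at least 1 pentamer in the 3′ UTR, against 70.4% of 10000 compared genes with an annotated 3′ UTR. Ccl3, Ccl9 and Ccl12 held 5 each and Ccl5 held 0. The density ranged up to 29.9 per kb in Ccl12, with a median of 4.24 per kb over the ligands and 1.34 per kb over those genes. No ligand held a pair of pentamers that share a base.

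The remaining CC ligands were close to absent. Of 14 further symbols 13 were matched, and Ccl28 was not. Of those 13, 11 had no read in either library, Ccl24 had 0 reads in the knockout and 1 in the control, and Ccl25 had 22 in the knockout and 12 in the control. A count of 0 allows a level of up to 0.0713 in the knockout and 0.0745 in the control.

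The receptor genes with the highest control levels, Ccr1 and Ccr3, were far lower in the knockout library. Of 13 receptors and decoys, 4 were compared, of which 2 were lower by the 2-fold rule and 2 within it. Over all compared genes 9.58% were lower. Ccr1, the receptor shared by Ccl3, Ccl5, Ccl6, Ccl7 and Ccl9, had a level of 3.75 in the knockout and 117 in the control, 31.2-fold lower (26.6 to 36.8). Ccr3, the eotaxin receptor, had a level of 0.238 in the knockout and 7.85 in the control, 33.1-fold lower (17.7 to 69.6). It passed the filter only through the control, so its lower call was partly set by the filter. Ccr2, the receptor of Ccl2, Ccl7 and Ccl12, had a level of 1.83 in the knockout and 2.48 in the control, and the interval of its ratio, 0.540 to 1.0009, held 1. The receptor gene for Ccl22, Ccr4, had 1 read in the knockout and 4 in the control. Ccrl1, an atypical receptor that scavenges ligands, had a level of 0.784 in the knockout and 1.69 in the control. It was 2.16-fold lower (1.40 to 3.37) without the added 1, and within 2-fold with it. Ccrl2, another atypical receptor gene, had 16 reads in the knockout and 0 in the control. Against an assumed 3 control reads it was 5.10-fold higher, and the interval of its ratio ran from 3.69 upwards.

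**Figure D5:**
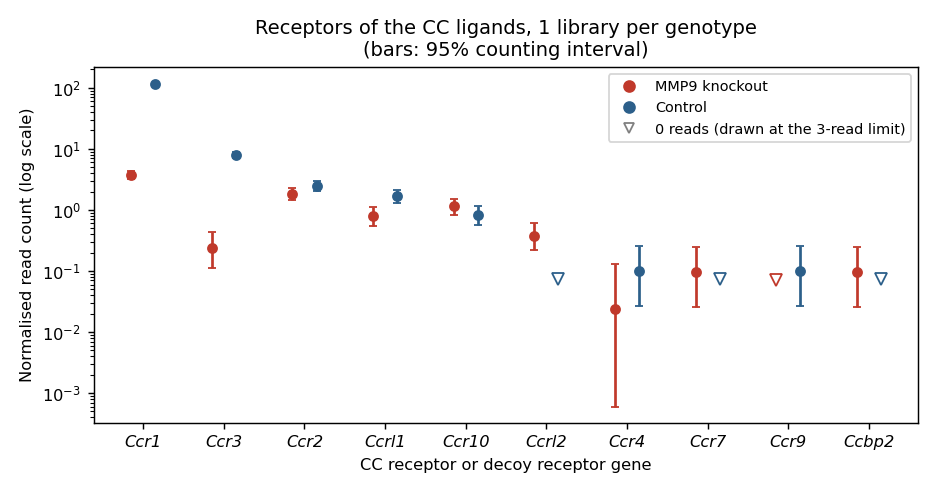
Normalised read counts (log axis) of the listed CC receptors and decoy receptors with at least 1 read in either library, for the MMP9 knockout (red, left of each pair) and the control (blue, right), with 95% counting intervals. Open triangles mark 0 reads and stand at the level of 3 reads. Ccr1 and Ccr3 are lower in the knockout, at 3.75 and 0.238 there, against 117 and 7.85 in the control. The intervals of Ccr2 in both libraries overlap.

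Genes of the pathways that switch on CC ligands, feedback inhibitors included, went both ways. Of 30 listed inducers, 27 were compared, of which 7 were higher, 4 lower and 16 within 2-fold. Among the 7, Irf8 had a level of 9.45 in the knockout and 0.745 in the control. Irf8 passed the filter only through the knockout, so its call was partly set by the filter. Over all compared genes 4% were higher and 9.58% lower. The 4 inducers with the largest absolute log2 ratios are given next, and all 4 were higher, so the 4 lower inducers are not named. Irf7, an interferon regulatory factor, had a level of 43.3 in the knockout and 1.34 in the control, 32.2-fold higher (24.6 to 43.1). Cd14, the endotoxin co-receptor, had a level of 166 in the knockout and 15.5 in the control, 10.8-fold higher (9.92 to 11.7). Nfkbiz, a nuclear cofactor of NF-kB, had a level of 21.6 in the knockout and 1.66 in the control, 12.96-fold higher (10.1 to 16.9). Tnf, a cytokine that induces several of these ligands, had a level of 85.5 in the knockout and 9.22 in the control, 9.27-fold higher (8.33 to 10.3). The median log2 ratio over the inducers was 0.01, beside -0.16 over all compared genes. With equal sums 7 inducers were called in all, against 11 as deposited. Ifnb1, the interferon beta gene, had no read in either library, and Il1b had 19 reads in the knockout and 0 in the control; both were picked after their values were seen.

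Genes that act on mRNA stability and on secreted or membrane proteins were also listed. Of 5 genes for proteins that bind AU-rich or other decay elements, 1 was higher and 4 were within 2-fold. For all compared genes the shares were 4% higher and 9.58% lower, so most were within 2-fold. The higher gene was Zc3h12a, which encodes the endoribonuclease Regnase-1, with a level of 17.5 in the knockout and 4.03 in the control, 4.36-fold higher (3.67 to 5.195). Of 9 listed protease genes, 5 were compared, of which 2 were higher, 2 lower and 1 within 2-fold. Over all compared genes 4% were higher and 9.58% lower. Besides Mmp9, Mmp14 was 0.261 in the knockout and 2.81 in the control, 10.7-fold lower (5.78 to 22.1). Mmp14 passed the filter only through the control, so its call was partly set by the filter. Cpd, which encodes carboxypeptidase D, was 445 in the knockout and 112 in the control, 3.97-fold higher (3.85 to 4.11). The sheddase gene Adam17 was 108 in the knockout and 41.1 in the control, 2.62-fold higher (2.48 to 2.77).

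Markers of other cells that make or answer to CC ligands were low in both libraries. Summed levels were 0.404 in the knockout and 0 in the control for 8 neutrophil markers, with 6 at 0 in both, and 0 in the knockout and 0.0497 in the control for 9 T and NK cell markers, with 8 at 0 in both. They were 0.261 in the knockout and 0.0497 in the control for 5 B cell markers, and 0.428 in the knockout and 0.398 in the control for 6 stromal markers, among which Col1a1, Col1a2 and Col3a1 were at 0 in both. For 5 mast cell and basophil markers they were 0 in the knockout and 0.0745 in the control, and for the 3 matched of 4 eosinophil markers 0 in the knockout and 0.373 in the control.

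The genes nearest to Ccl4 in the plane of both libraries' log2 levels, over 11110 genes and 2 libraries, were Usp18, Cybb and Irg1, at distances of 0.314, 0.942 and 0.996 log2 units. Usp18, an interferon-stimulated protease gene, had a level of 103 in the knockout and 1.17 in the control. Those nearest to Ccl9 were Actn4, Capg and Akr1a4, at distances of 0.112, 0.133 and 0.169. Capg, an actin-capping protein gene, had a level of 276 in the knockout and 541 in the control. With 2 libraries such likeness says only that the levels were alike in both.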

How the data were processed

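Polyadenylated RNA of 1 MMP9 knockout and 1 control culture was read on an Illumina HiSeq, per the labels' protocols. Reads were aligned with TopHat to mm9, per the submitters' processing notes; the sources used here name no counting program, annotation, strand setting or normalisation method. The table that the authors deposited holds log2 values of 26037 genes. It is titled as RPKM, but after conversion from log2 the values were whole multiples of 0.0238 in the knockout and 0.0248 in the control for genes of any length (within 0.05 of a whole read for 99.996% and 99.99% of values). They were treated as normalised read counts, and genes carrying 0.9 of that step were set to 0 reads.

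The log2 ratio was that of the knockout level plus 1 over the control level plus 1, compared at a mean level of at least 1. Folds carry exact 95% binomial intervals, and a fold against 0 reads is computed against an assumed 3 reads in that library. The depth gives wide intervals below about 20 reads. Positions, lengths, GC content and 3′ UTRs came from GENCODE M21 on GRCm38, another build than mm9, with 23607 genes matched by Ensembl identifier; the promoter windows are RefSeq's. The intervals and calls were tried on simulated reads with counting error only, which is the model that the intervals assume. This covered genes at a mean level of at least 5, which leaves out Ccl5 and Ccl22. It cannot show how far cultures vary. Alternatives were added values of 0.1 and 5, other filters, other scalings, centring by GC content and fold thresholds of 1.5 and 4. Python 3.11.15, scipy 1.17.1 and Biopython 1.88 were used.

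The 9 ligands, the lists and the thresholds were chosen with earlier results of these data known. Named were all 9 ligands, the other CC ligands, at most 4 genes of each other list (those with the largest absolute log2 ratio), neighbouring genes and the 3 genes nearest in level to the ligands of highest and lowest ratio. Exceptions named for their values or for a receptor's role were Ccr2, Ccr4, Irf8, Ifnb1, Il1b and markers. A receptor of the list is not reported here.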

Additional observations from a re-analysis of the deposited data

How the results depend on the processing

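No paired analysis was possible because each genotype had 1 library, which also meant that none could be left out. The number of ligands called lower, 1 as deposited (Ccl9), was 0 with the median log2 ratio set to 0, 0 with a trimmed mean, 0 with equal sums and 0 at 4-fold. The number called higher was 3 when a control level of at least 1 was required, an alternative chosen after seeing the data, since this removes Ccl5, Ccl7 and Ccl22 by construction, and was 4 to 6 under the others. Genes called higher and lower were 255 and 603 with an added value of 5, 674 and 684 with equal sums, 952 and 2580 at 1.5-fold, and 164 and 219 at 4-fold; 671 were lower after centring in bins of GC content. Receptors past 2-fold were 1 with a mean level of at least 5, and inducers 7 with equal sums and 5 at 4-fold. The higher and stricter thresholds act by construction, and the cause of the other shifts was not tested. The filters cannot move a ratio and were left out of the next count. Over the ligands, 33 alternative log2 ratios stayed within a counting interval around the ratio with 1 added, 19 left it and 0 changed sign. The intervals printed beside the folds belong to ratios without the added 1 and were not used for this count. Added values cannot change a sign, and the scalings shift log2 ratios by at most 0.29. Ccl5 ranged from 0.68 to 2.86, Ccl22 from 1.13 to 3.32, Ccl7 from 1.499 to 4.58 and Ccl4 from 3.94 to 5.95. Depth limits Ccl6 and Ccl12, with at most 11 reads.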
